A study of Mus musculus with 16 samples.

Results

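The change between 6 h and 24 h of hyperoxic culture was described in primary alveolar type II cells, isolated from the lungs of C57BL/6 mice. Of the 16 one-colour arrays of the study, 8 were chosen by their titles: 4 of cells held in 85% O2 for 24 h and 4 of cells held in 85% O2 for 6 h. The other 8 arrays, 4 each of cells held in 21% O2 for 24 h and 6 h, entered where the change over time was set against that in normoxic culture. The labels do not say whether the arrays of a group came from separate mice or cultures, so the p-values measure the spread between these samples, which may be technical. Each time was hybridised on its own slide, and time and slide therefore cannot be told apart in any 24 h against 6 h comparison. On each slide the normoxia arrays lay in row 1 and the hyperoxia arrays in row 2, so oxygen went with the row. Values are log2 signals relative to the array's own 75th percentile, so a value of 0 is that percentile, and a change of 1 is a 2-fold difference. They serve to compare arrays for 1 gene and not to rank genes against each other.

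Type II cells make surfactant, the lipid and protein film that keeps alveoli open, and divide to replace type I cells, the flat cells through which gas exchange takes place. High oxygen raises the formation of reactive oxygen species, which oxidise DNA, proteins and lipids. DNA damage stabilises the transcription factor p53, whose targets arrest the cell cycle, aid repair or promote cell death. Electrophiles and oxidants release the transcription factor NRF2 from its inhibitor KEAP1, and NRF2 then raises genes of glutathione and quinone metabolism. Isolated type II cells kept on plastic also lose surfactant gene expression with time, whatever the oxygen. A change between 6 h and 24 h of hyperoxic culture therefore holds both time in culture and time in oxygen, and the difference from the normoxic time change was tested for each gene.

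Between 60.1% and 69.0% of the probes of each hyperoxia array were well above background, and no spot was saturated. The 75th percentile of the signal lay between 899 and 992 on the 6 h arrays, against 685 to 801 on the 24 h arrays. The 7 spike-in control RNAs differed by -0.01 to 0.11 between the slides after scaling and by -0.35 to -0.22 before it. The first principal component of the 8 arrays carried 67.8% of their variance and separated 6 h from 24 h, at -59.2 to -46.6 for 6 h and 46.7 to 59.9 for 24 h. The second held 9.21%, and hyperoxia 6 h replicate 3 stood apart on it at -41.4, the other 7 arrays lying between -15.4 and 28.1. That array had the lowest array weight, 0.223, and the median SD over genes was 0.19 at 6 h against 0.12 at 24 h.

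Hyperoxic culture changed about as many genes upward as downward between 6 h and 24 h. Of 25414 genes tested, 6347 rose (25.0%) and 6957 fell (27.4%), so 13304 (52.3%) passed limma's test at an adjusted p under 0.05. Changes of at least 2-fold were fewer: 832 genes rose by that much (3.27%) and 1905 fell by that much (7.5%). The 4 arrays of one time lay wholly above or below the 4 of the other for 11506 genes (45.3%), and the median change over all genes was -0.02. This balance depended on the scaling. Dividing by the median of each array moved the median of all genes by 0.22 on the log2 scale and gave 10682 higher and 4204 lower, and a normexp background correction gave 7821 and 4612. Small changes are therefore read against that shift, and gene groups whose direction turned with the scaling are given as counts. Without hyperoxia 6 h replicate 3 the counts were 6755 higher and 6929 lower. Counts of list members below stand against the shares over all genes, 25.0% higher and 27.4% lower.

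Most changes over time in hyperoxia had a counterpart in normoxia. Of the 6347 genes that rose, 3470 (54.7%) also rose in normoxia, 2703 (42.6%) were not called there and 174 (2.74%) fell. Of the 6957 that fell, 4247 (61.0%) also fell in normoxia, 2597 (37.3%) were not called and 113 (1.62%) rose. The difference between the changes, hyperoxia less normoxia, was itself called for 3113 genes (12.2%), positive for 1683 (6.62%) and negative for 1430 (5.63%). Among genes that rose in hyperoxia, 1372 (21.6%) rose more than in normoxia by that test, and among those that fell, 1108 (15.9%) fell more. Without hyperoxia 6 h replicate 3 the test of the difference called 2707 positive and 2261 negative. List counts of differences below stand against 6.62% positive and 5.63% negative over all genes.

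**Figure D1:**
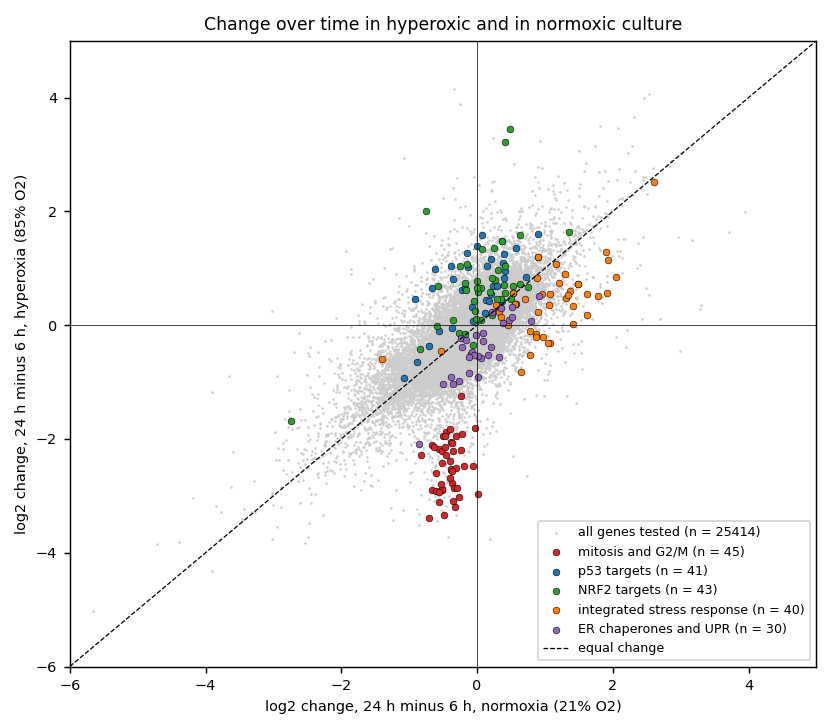
Each point is a gene, placed by its log2 change between 6 h and 24 h in normoxia (horizontal axis) and in hyperoxia (vertical axis), with 25414 genes in grey, members of 5 gene lists in colour and a dashed line of equal change. The 45 mitosis genes lie far below the line, p53 and NRF2 targets mostly above it, and integrated stress response genes mostly to the right of it.

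Protease genes were among the 10 largest rises of genes with a RefSeq symbol. Try4 and Try5 encode trypsins, and near-identical copies in the trypsin family may share a probe's signal. Try4 read -4.08, -5.66, -5.21 and -4.48 at 6 h and -0.32, -1.99, -0.60 and -0.29 at 24 h, without overlap, and was 16.6-fold higher (log2 change 4.05 ± 0.46 SE, adjusted p = 8.01e-06). For Try5 the values were -3.25, -4.45, -4.14 and -4.65 at 6 h and 0.30, -1.21, 0.00 and 0.34 at 24 h, 15.8-fold higher (3.99 ± 0.42). For both genes hyperoxia 24 h replicate 2 was the lowest array of its group by more than 1 log2 unit. Mcpt1, a mast cell protease gene, was 12.6-fold higher (3.66 ± 0.40). Cpa6, a carboxypeptidase gene, was at least 11.3-fold higher, its mean going from -7.70 ± 0.33 to -4.20 ± 0.56 (SD, n = 4), with no 6 h array above background. Mmel1, a membrane metallopeptidase gene, rose by 3.47 ± 0.65 and was above background on 1 of 4 arrays at 6 h. In normoxia Try4, Try5 and Mcpt1 rose by 2.54 ± 0.46, 2.46 ± 0.42 and 2.32 ± 0.40. Mmel1 had no normoxic 6 h array above background and Cpa6 no normoxic array at either time, so no normoxic change is given for them. Of the 5 genes the fitted difference was called for Cpa6 (adjusted p = 0.00892), though not with normexp background correction (adjusted p = 0.303).

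Another set of rises was called in the test of the difference from normoxia as well. Svop, which encodes a synaptic vesicle protein, read -6.10, -5.87, -5.72 and -6.14 at 6 h and -2.12, -1.66, -2.05 and -2.45 at 24 h, a rise of 3.89 ± 0.21 (adjusted p = 6.14e-09), and was above background on 2 of 4 arrays at 6 h. In normoxia 1 of 4 arrays was above background at 6 h and 0 of 4 at 24 h. Ces2e, a carboxylesterase gene of drug and lipid ester hydrolysis, rose 9.79-fold (3.29 ± 0.37), from -3.93, -3.74, -3.87 and -3.83 at 6 h to -0.83, 0.60, -0.65 and -1.33 at 24 h. All 24 h arrays of Ces2e stood above all 6 h arrays, and the normoxic change was 0.24 ± 0.37, a difference of 3.05 ± 0.52. The homeobox genes Hoxc13 and Hoxc9 were near background at 6 h. Hoxc13 rose by 3.43 ± 0.42 and was above background on 1 of 4 arrays at 6 h, while Hoxc9 was at least 3.69-fold higher, going from -6.11 ± 0.53 to -4.22 ± 0.24 with no 6 h array above background. The relaxin gene Rln1 was likewise at least 5.98-fold higher (-6.77 ± 0.44 to -4.19 ± 0.33) and the histone H2A gene H2ac6 at least 9.49-fold higher (-6.49 ± 0.11 to -3.24 ± 0.40), both from 0 of 4 arrays above background. Rimbp3 rose by 1.31 ± 0.38, while in normoxia 4 of 4 arrays were above background at 6 h and 0 of 4 at 24 h. For Svop, Hoxc13, Hoxc9, Rln1, H2ac6 and Rimbp3 at least 1 of the 4 groups had no array above background, so the fitted differences, each positive and called, have no exact size and are not given. That of Hoxc13 was not called with normexp background correction (adjusted p = 0.0548).

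Secretory and immune genes were among the largest falls, and those named here fell in normoxia as well. Scgb1a1, the secretoglobin of airway club cells, read 4.50, 4.98, 5.52 and 5.53 at 6 h and -0.06, 0.16, 0.12 and 0.20 at 24 h and fell 32.6-fold (-5.02 ± 0.25, adjusted p = 2.48e-09). Its 4 arrays at 24 h lay within 0.3 of each other and more than 4 below the lowest 6 h array. Scgb3a1, another secretoglobin gene, fell by 3.82 ± 0.67, with 6 h replicate 3 more than 2 above the other 6 h arrays. The trefoil peptide gene Tff1 changed by -3.55 ± 0.50 and the platelet chemokine gene Ppbp by -3.85 ± 0.51. Padi4, which encodes an enzyme that citrullinates histones and is best known from neutrophils, changed by -3.73 ± 0.35, and Mall, of a family of membrane raft proteins, by -3.47 ± 0.27. Gm4610 was at least 19.9-fold lower, from -2.43 ± 0.89 to -6.74 ± 0.52, with no 24 h array above background. In normoxia Scgb1a1 changed by -5.66 ± 0.25, Scgb3a1 by -4.39 ± 0.67, Tff1 by -2.95 ± 0.50, Ppbp by -4.71 ± 0.51, Padi4 by -2.50 ± 0.35, Mall by -2.48 ± 0.27 and Gm4610 by -3.90 ± 0.71, and for these 7 the difference was not called. Depdc1b, a cell division gene, differed: it changed by -3.50 ± 0.13 in hyperoxia and by -0.85 ± 0.13 in normoxia, a difference of -2.65 ± 0.18 (adjusted p = 8.15e-07).

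**Figure D2:**
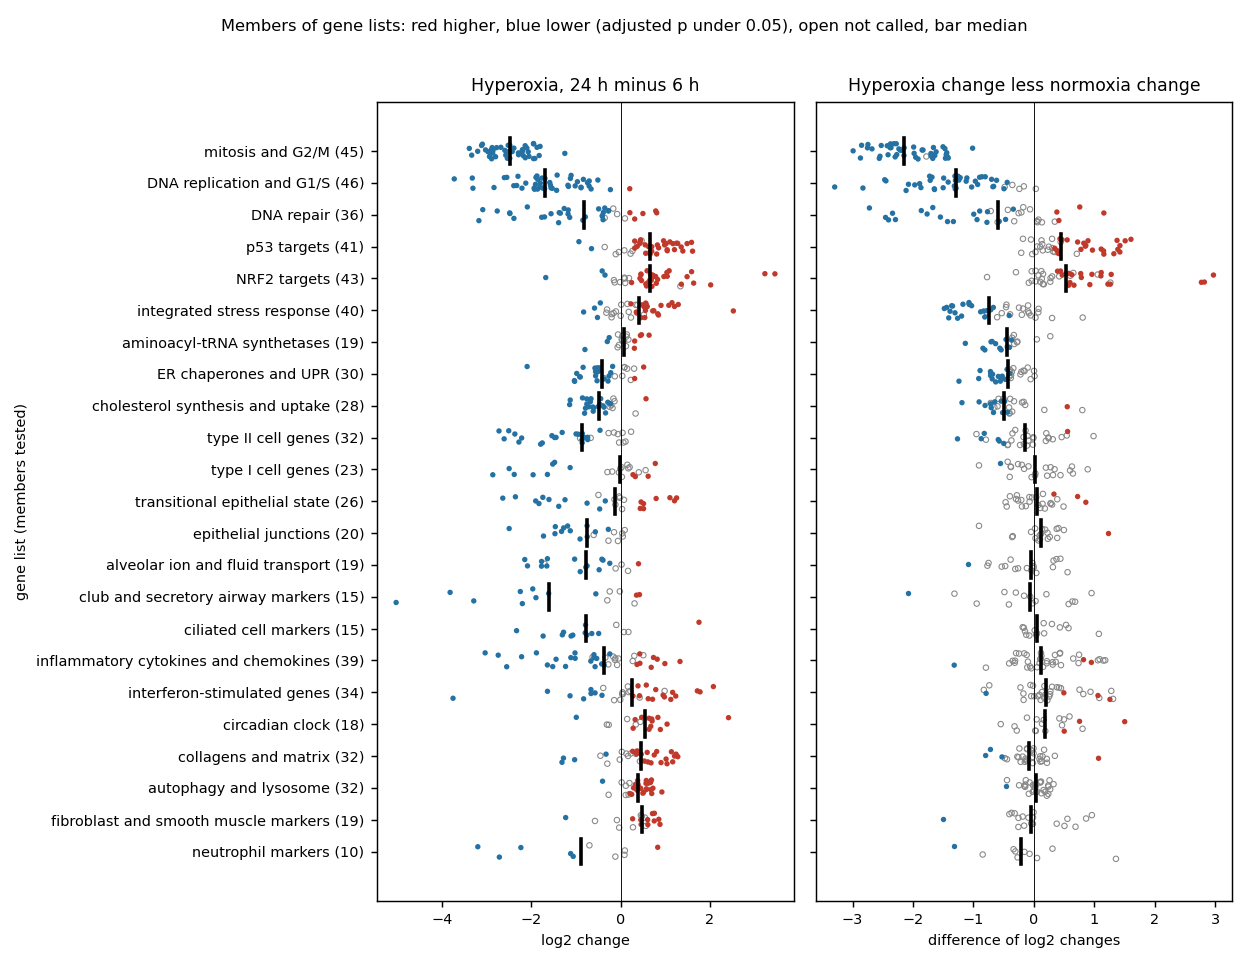
Each point is a tested member of a gene list, placed by its log2 change in hyperoxia (left) and by the difference of that change from normoxia (right), red where higher, blue where lower at an adjusted p under 0.05 and open where not called, with a bar at the median. The mitosis list has all 45 members at -1.25 or below on the left and 44 called negative on the right.

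Genes of cell division fell together in hyperoxic culture. All 45 listed mitosis and G2/M genes fell, each by at least 2-fold, with a median of -2.48 against -0.02 over all genes, of which 27.4% fell. In normoxia 32 of the 45 fell, with a median of -0.40, and the difference was called negative for 44 (5.63% of all genes) and positive for 0. DNA replication and G1/S genes gave 45 of 46 lower, a median of -1.70 and 41 differences called negative. Over all alternatives, median scaling included, 44 or 45 mitosis genes and 43 to 45 replication genes fell.

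Promoters of these genes are known to carry a CCAAT box, bound by NF-Y, and a cell cycle homology region, bound by the MuvB complex in its repressing and activating forms. The 150 bases from 120 before to 30 after the transcription start are shown for 5 mitosis genes whose values follow, from RefSeq on GRCm38.p6, 5′ to 3′ on the gene's strand. Capitals mark CCAAT and the cell cycle homology letters TTTGAA or TTTAAA on either strand, so a CCAAT on the opposite strand reads ATTGG and TTTGAA reads TTCAAA.
Plk1 (chr7:122159315-122159464, plus strand): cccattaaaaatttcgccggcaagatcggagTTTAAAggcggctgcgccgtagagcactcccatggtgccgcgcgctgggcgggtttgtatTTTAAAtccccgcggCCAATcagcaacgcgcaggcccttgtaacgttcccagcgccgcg
Cdk1 (chr10:69352883-69353032, minus strand): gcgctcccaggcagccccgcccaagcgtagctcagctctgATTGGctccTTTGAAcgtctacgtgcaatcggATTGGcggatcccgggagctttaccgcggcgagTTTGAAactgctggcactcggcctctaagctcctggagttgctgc
Ccnb1 (chr13:100786457-100786606, minus strand): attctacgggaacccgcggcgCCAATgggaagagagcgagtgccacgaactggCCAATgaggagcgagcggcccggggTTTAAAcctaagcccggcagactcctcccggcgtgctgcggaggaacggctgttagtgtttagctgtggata
Kif11 (chr19:37376262-37376411, plus strand): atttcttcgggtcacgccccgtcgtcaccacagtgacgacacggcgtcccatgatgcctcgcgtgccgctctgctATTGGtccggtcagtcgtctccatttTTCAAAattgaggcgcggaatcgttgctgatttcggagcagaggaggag
Ttk (chr9:83834569-83834718, plus strand): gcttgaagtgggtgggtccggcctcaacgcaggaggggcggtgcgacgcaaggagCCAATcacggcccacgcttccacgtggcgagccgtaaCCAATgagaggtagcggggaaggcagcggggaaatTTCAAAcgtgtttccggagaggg
These 5 promoters were picked by hand, so that all of them hold both motifs says nothing of the share, which is given next. In Plk1 the CCAAT comes after the homology letters, in Cdk1 the motifs alternate, and in the other genes CCAAT comes first. Of 37 mitosis members with a promoter window of 300 bases (250 before to 50 after the start), 28 (75.7%) held CCAAT against 41.1% of all 27025 genes with a window. The homology letters were in 31 of the 37 (83.8%) against 30.6% of all genes. Over tested genes with a window the shares were 42.3% for CCAAT and 24.3% for the homology letters. A match is a description of the letters and no evidence of binding.

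Plk1, a kinase that drives mitotic entry, spindle assembly and cytokinesis, read 3.97, 4.47, 3.91 and 4.08 at 6 h and 1.31, 1.01, 0.83 and 0.83 at 24 h. All 4 arrays at 24 h lay more than 2.5 below the lowest 6 h array, a 8.65-fold fall (-3.11 ± 0.13, adjusted p = 6.46e-10). In normoxia Plk1 changed by -0.57 ± 0.13, and the difference was -2.55 ± 0.19 (adjusted p = 1.12e-06). Cdk1, the kinase that triggers mitosis, went from 2.77 ± 0.15 to 0.24 ± 0.15 (SD, n = 4), a change of -2.54 ± 0.11, and its partner cyclin gene Ccnb1 from 2.45 ± 0.11 to -0.03 ± 0.26 (-2.48 ± 0.14). The cyclin A gene Ccna2 changed by -3.02 ± 0.14 and Mki67, the proliferation antigen gene, by -3.20 ± 0.16, from 3.66, 3.95, 3.88 and 3.88 at 6 h to 1.02, 0.51, 0.37 and 0.66 at 24 h. In normoxia neither Ccnb1 (-0.06 ± 0.14) nor Ccna2 (-0.27 ± 0.14) nor Mki67 (-0.33 ± 0.16) was called.

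Genes of the spindle and kinetochore fell as far. Kif11, the motor that pushes spindle poles apart, read -1.37, -0.80, -1.13 and -0.87 at 6 h and -3.46, -4.03, -4.29 and -4.27 at 24 h, a change of -2.97 ± 0.23 against 0.02 ± 0.23 in normoxia. The spindle checkpoint kinase gene Ttk read -2.0, -1.85, -2.02 and -1.44 at 6 h and -5.02, -5.49, -4.95 and -5.19 at 24 h and fell by 3.33 ± 0.15, with 2 of 4 arrays above background at 24 h. No 24 h array reached the lowest 6 h value for either gene. Kif2c, a kinesin that depolymerises microtubules at the kinetochore, changed by -3.39 ± 0.20 and Ska1, of the kinetochore complex that tracks microtubule ends, by -3.43 ± 0.12. Aunip, which encodes a partner of Aurora A, fell 10.1-fold (-3.34 ± 0.20), and Fbxo5, the inhibitor of the anaphase-promoting complex, 8.33-fold (-3.06 ± 0.13). Their differences from normoxia were -2.99 for Kif11, -2.85 for Ttk, -2.68 for Kif2c, -2.85 for Ska1, -3.03 for Aunip and -2.84 for Fbxo5.

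Within the 24 h group, hyperoxia replicate 1 was the highest array for 42 of 45 mitosis members, with a mean deviation of 0.29 from the group mean. It was also the highest for 31 of 46 replication members (0.12). That spread is small beside the list's median fall.

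Replication genes of licensing and of synthesis fell. Ccne2, a cyclin of S phase entry, had the largest fall among them, -3.72 ± 0.39, from -2.88, -3.31, -2.85 and -3.35 at 6 h to -6.26, -8.11, -5.59 and -7.32 at 24 h, where 1 of 4 arrays was above background. Cdc6, which loads the replicative helicase, read 0.29 to 0.57 at 6 h, against -3.02 to -2.84 at 24 h, a change of -3.32 ± 0.11. Mcm5, a subunit of that helicase, went from 3.29, 3.60, 3.20 and 3.58 at 6 h and 1.09, 0.94, 0.81 and 0.65 at 24 h and fell 5.85-fold (-2.55 ± 0.11). The ribonucleotide reductase gene Rrm2 (-2.39 ± 0.12), the sliding clamp gene Pcna (-1.42 ± 0.09) and the atypical E2F repressor gene E2f8 (-3.31 ± 0.13) fell too. None of these had overlapping groups, and all 6 differed from normoxia, by -3.30 for Ccne2, -2.47 for Cdc6, -1.87 for Mcm5, -1.89 for Rrm2, -1.12 for Pcna and -2.83 for E2f8. The exception was Gins3, of the GINS helicase complex, which rose by 0.20 ± 0.05 (adjusted p = 0.00651). That call was lost with quantile normalization, in the authors' table and with the 8 arrays alone.

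Most DNA repair genes fell. Of 36 tested, 27 fell and 5 rose, with a median of -0.82, and the difference from normoxia was negative for 19 and positive for 4. Exo1, a nuclease of end resection and mismatch repair, fell 9.02-fold (-3.17 ± 0.12). Brca1, of homologous recombination, was at least 8.49-fold lower, from -3.93 ± 0.61 to -7.02 ± 0.82, with no 24 h array above background. Xpa, of nucleotide excision repair, read 2.54, 2.44, 2.81 and 2.45 at 6 h and 3.32, 3.37, 3.31 and 3.37 at 24 h and rose by 0.78 ± 0.08 (adjusted p = 2.13e-06), and Polk, a translesion polymerase gene that is also a p53 target, rose by 0.81 ± 0.10. Both had every 24 h array above every 6 h array, while the normoxic changes were 0.02 ± 0.08 and -0.35 ± 0.10.

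E2F factors bind GC-rich sites in promoters of S phase genes. The Brca1 promoter, shown because the gene fell below background, has 1 such match, in capitals, just after the transcription start (RefSeq, GRCm38.p6).
Brca1 (chr11:101551926-101552075, minus strand): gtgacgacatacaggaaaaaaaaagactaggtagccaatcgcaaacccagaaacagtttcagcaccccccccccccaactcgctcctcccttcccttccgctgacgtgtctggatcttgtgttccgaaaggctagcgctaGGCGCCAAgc
The forms TTTCCCGC, TTTGGCGC, TTCCCGCC and TTGGCGCC were searched on both strands, and they can overlap each other. In the 300-base windows 18 of 38 replication members (47.4%) held any of them, against 4.34% of all genes and 6.88% of tested genes.

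Regulators of G1 moved both ways. Of 18 tested, 4 rose and 8 fell, with a median of -0.18. Cdkn2a, which encodes the inhibitors p16 and p19Arf, read 2.08, 1.72, 2.14 and 1.45 at 6 h and 3.24, 3.73, 3.39 and 2.89 at 24 h and rose by 1.46 ± 0.18. Cyclin D genes diverged: Ccnd1 fell by 0.94 ± 0.18 and Ccnd2 rose by 1.06 ± 0.11. In normoxia Cdkn2a, Ccnd1 and Ccnd2 changed by 1.27 ± 0.18, -1.07 ± 0.18 and 1.16 ± 0.11, and the difference was called for none of the 3. Rb1, the retinoblastoma gene, rose by 0.85 ± 0.10 in hyperoxia and was not called in normoxia (0.20 ± 0.10), a difference of 0.65 ± 0.14 (adjusted p = 0.00601).

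**Figure D3:**
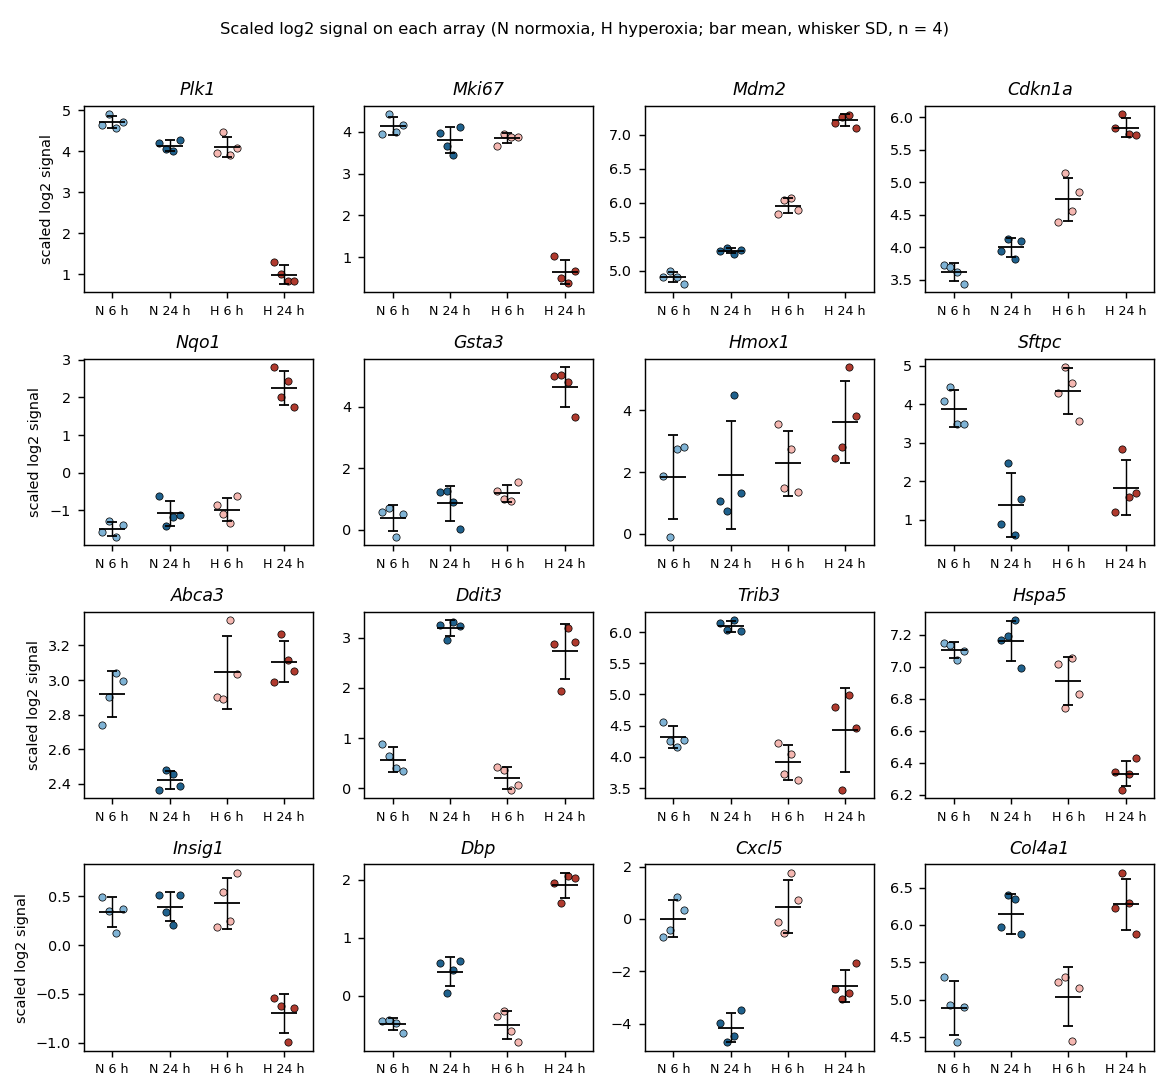
Scaled log2 signal of 16 genes on each of the 16 arrays, by group (N normoxia, H hyperoxia), with the mean as a bar and the SD as a whisker (n = 4). Plk1 and Mki67 drop in the H 24 h group, Nqo1 and Gsta3 rise there, Sftpc and Cxcl5 are lower at 24 h in both oxygen groups, and Hmox1 overlaps in all groups.

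Targets of p53 rose. Of 41 tested, 31 rose and 2 fell in hyperoxia, with a median of 0.66, while in normoxia 17 rose and 10 fell, with a median of 0.14. The difference was positive for 23 members (6.62% of all genes) and negative for 0. Mdm2, the ubiquitin ligase that degrades p53, read 5.84, 6.04, 6.07 and 5.89 at 6 h and 7.18, 7.27, 7.29 and 7.10 at 24 h, a 2.38-fold rise without overlap (1.25 ± 0.07, adjusted p = 5.12e-09). Its normoxic change was 0.39 ± 0.07 and the difference 0.86 ± 0.10. Cdkn1a, which encodes the cyclin-dependent kinase inhibitor p21, read 4.39, 5.15, 4.55 and 4.84 at 6 h and 5.83, 6.04, 5.74 and 5.72 at 24 h and rose by 1.10 ± 0.14 against 0.38 ± 0.14 in normoxia. The difference for Cdkn1a was 0.72 ± 0.20 (adjusted p = 0.0278), and it was lost with quantile normalization, in the authors' table, and without hyperoxia 24 h replicate 2, normoxia 24 h replicate 1 or 3, or normoxia 6 h replicate 1 or 2, at an adjusted p of 0.0523 to 0.0662.

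Death and stress effectors were among the p53 targets that rose. The death receptor gene Fas went from 0.08, 0.13, 0.21 and -0.15 at 6 h and 1.43, 1.89, 1.43 and 1.08 at 24 h, a rise of 1.39 ± 0.21, with no normoxic change (0.00 ± 0.21). Pidd1, whose protein activates caspase-2, rose by 0.98 ± 0.11 while in normoxia it fell by 0.62 ± 0.11, so that the difference was 1.61 ± 0.15 (adjusted p = 7.37e-06). Fas and Pidd1 were picked after their values were seen. Trp53inp1, a p53 cofactor gene, did likewise, with 1.04 ± 0.14 in hyperoxia and -0.38 ± 0.14 in normoxia. Eda2r, a receptor of the tumour necrosis factor family, rose 3.05-fold (1.61 ± 0.21), but the difference from normoxia was not called (0.71 ± 0.30). Dcxr, a carbonyl reductase gene, rose 3-fold (1.58 ± 0.13, normoxia 0.07 ± 0.13). The 2 that fell were Ccnd1, given above, and Trp53i11 (-0.65 ± 0.18), whose call was lost with median scaling.

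Of 15 BCL2 family death genes tested, 8 rose and 3 fell, against 25.0% and 27.4% of all genes. Of their differences 4 were positive and 0 negative, against 6.62% and 5.63% of all genes. Without hyperoxia 24 h replicate 2, and with quantile normalization, the count of rises was 5. Bax, which permeabilises the outer mitochondrial membrane, read 4.16, 4.18, 4.23 and 4.13 at 6 h and 5.07, 5.24, 5.32 and 5.14 at 24 h and rose by 1.01 ± 0.20 (adjusted p = 8.47e-04), against -0.14 ± 0.20 in normoxia. Bcl2l1, whose main product BCL-XL opposes it, also rose, by 0.66 ± 0.12, against -0.11 ± 0.12. The differences of 1.15 ± 0.29 for Bax and 0.77 ± 0.17 for Bcl2l1 were both called. Bbc3, which encodes PUMA, rose by 0.85 ± 0.12 and the epithelial death gene Bik fell by 1.32 ± 0.32, and neither differed from normoxia (0.13 and 0.31).

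NRF2 targets rose as well. Of 45 listed genes 44 are on the array and 43 were tested, of which 32 rose and 3 fell, with a median of 0.67. In normoxia 15 rose and 6 fell (median 0.07), and the difference was positive for 21 and negative for 0. Nqo1, the quinone reductase gene used as a standard readout of NRF2, read -0.86, -1.11, -1.32 and -0.62 at 6 h and 2.80, 2.01, 2.43 and 1.76 at 24 h. Each 24 h array was at least 2 above each 6 h array, a 9.36-fold rise (3.23 ± 0.22, adjusted p = 5.73e-08) against 0.41 ± 0.22 in normoxia.

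Glutathione S-transferases of the alpha class, which detoxify lipid peroxidation products, gave both the largest rise and the largest fall of the list. They are close paralogs whose probes may share signal. Gsta3 read 1.25, 1.02, 0.93 and 1.56 at 6 h and 5.01, 5.05, 4.82 and 3.68 at 24 h, 10.9-fold higher, and 24 h replicate 4 was the lowest of its group. Gsta4 rose by 2.01 ± 0.23, reading -1.37 to -0.40 at 6 h, against 0.49 to 1.66 at 24 h, while in normoxia it fell (-0.76 ± 0.23). Gsta2 changed by -1.68 ± 0.45 in hyperoxia and by -2.73 ± 0.45 in normoxia, and its 6 h arrays spread from -1.45 to 1.10. The differences were 2.97 ± 0.46 for Gsta3, 2.77 ± 0.32 for Gsta4 and 1.06 ± 0.63 for Gsta2, the last not called (adjusted p = 0.327).

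Other members of the NRF2 list rose too. Ephx1, the microsomal epoxide hydrolase gene, rose by 1.49 ± 0.16. Slc48a1, a heme transporter gene, rose by 1.59 ± 0.11, and Blvrb, which reduces biliverdin, by 1.36 ± 0.12. All 3 rose more than in normoxia, by 1.11, 0.96 and 1.11. Cat, the catalase gene, rose by 1.63 ± 0.12 in hyperoxia and by 1.36 ± 0.12 in normoxia, and the difference was not called. Slc48a1, Blvrb and Cat were picked after their values were seen. Hmox1, the heme oxygenase gene and a classic NRF2 target, read 3.56, 1.47, 2.74 and 1.37 at 6 h and 2.45, 2.80, 5.40 and 3.83 at 24 h, so the groups overlapped and the change of 1.34 ± 0.91 was not called (adjusted p = 0.23). Among the 24 h arrays, replicate 4 was the lowest for 30 of 43 NRF2 members (mean deviation -0.19) and replicate 1 the highest for 26 (0.13).

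Antioxidant genes outside the NRF2 list had a balance that depended on the scaling. Of 28 tested, 8 rose and 6 fell, with a median of 0.04, against 14 and 3 with median scaling. Msrb1, a methionine sulfoxide reductase gene, rose by 0.96 ± 0.07 and Ccs, the copper chaperone of superoxide dismutase, by 0.77 ± 0.07, the latter more than in normoxia (difference 0.37 ± 0.09). Sod3, the extracellular superoxide dismutase gene, changed by -1.08 ± 0.31, and the glutaredoxin gene Glrx by -0.98 ± 0.14. Of 20 listed AhR targets and xenobiotic enzymes, 16 were tested, and 7 rose and 4 fell. The 4 differences called were positive, among them Ahrr, the repressor of the aryl hydrocarbon receptor, which rose by 0.91 ± 0.20 against a normoxic change of -0.66 ± 0.20. The cytochrome P450 genes Cyp4b1 (-2.09 ± 0.28) and Cyp2b10 (-1.89 ± 0.31) fell, and Cyp2f2, a club cell P450, was at least 4.74-fold lower. Of 10 metallothionein and zinc transport genes 1 rose and 3 fell, and 3 rose and 1 fell with median scaling.

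The antioxidant response element is the NRF2 binding site, with the core TGACNNNGC. It was in the 300-base window of 12 of 36 NRF2 members (33.3%), 14% of all genes and 16.1% of tested genes, counting both strands.

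Type II cell genes fell, and most did so in normoxia too. Of 33 listed, 32 were tested, and 22 fell and 0 rose, with a median of -0.88. In normoxia 20 fell and 3 rose (median -0.71). All 32 were above background on every 6 h array and 31 on every 24 h array. Tested genes had passed a filter on background, and all 23 tested type I genes were above it on every hyperoxia array too. The count therefore does not identify the cell type. The summed scaled signal of the type II list went from 234 to 310 at 6 h to 162 to 188 at 24 h. The sum adds unlogged signals, here and for the marker lists below, so the brightest members weigh most in it. In bulk RNA, fewer cells of a type and less RNA per cell cannot be told apart.

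Surfactant protein genes led this fall. Sftpc, which is specific to type II cells, read 4.29, 4.96, 4.56 and 3.57 at 6 h and 1.20, 2.84, 1.60 and 1.71 at 24 h, a 5.68-fold fall (-2.51 ± 0.43, adjusted p = 2.65e-04) against -2.50 ± 0.43 in normoxia. Sftpb, whose product is needed for the surfactant film, went from 1.23, 1.92, 1.83 and 1.11 at 6 h and -1.86, -0.76, -1.04 and -1.13 at 24 h and fell 6.6-fold (-2.72 ± 0.25). Its normoxic change was -1.46 ± 0.25, so it fell further in hyperoxia (difference -1.26 ± 0.35, adjusted p = 0.0298). That difference was lost without hyperoxia 6 h replicate 2, normoxia 24 h replicate 2 or 4, or normoxia 6 h replicate 1, 3 or 4 (adjusted p = 0.0518 to 0.0643). The collectin genes Sftpd (-2.61 ± 0.30) and Sftpa1 (-2.37 ± 0.34) fell about as in normoxia (-2.81 ± 0.30 and -2.91 ± 0.34), and for neither was the difference called.

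Genes of lamellar bodies, the surfactant stores, did not move as one. Lamp3 read 4.40, 4.14, 4.49 and 4.17 at 6 h and 3.33, 3.36, 3.33 and 3.18 at 24 h and fell by 1.00 ± 0.08, against -0.13 ± 0.08 in normoxia, a difference of -0.87 ± 0.11. Abca3, the lipid pump of lamellar bodies, read 2.90, 2.89, 3.35 and 3.04 at 6 h and 2.99, 3.26, 3.12 and 3.05 at 24 h: the groups overlapped and its change of 0.06 ± 0.10 was not called. In normoxia Abca3 fell (-0.50 ± 0.10), and its difference of 0.56 ± 0.14 was the single positive one among the list's called differences (adjusted p = 0.0186). Etv5, a transcription factor gene of type II identity, changed by 0.11 ± 0.09 in hyperoxia and rose by 0.61 ± 0.09 in normoxia. Both Abca3 and Etv5 became called as rises with median scaling. S100g, a calcium-binding protein gene, fell by 2.28 ± 0.28, as in normoxia (-2.26 ± 0.28). Lamp3, Etv5 and S100g were picked after their values were seen. In all 6 differences of the list were negative, and 3 without hyperoxia 6 h replicate 2, normoxia 24 h replicate 2 or 4, or normoxia 6 h replicate 1. Among the 24 h arrays, replicate 2 was the highest for 19 of 32 members, with a mean deviation of 0.31.

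Type I cell genes showed no common direction. Of 23 tested, 4 rose and 8 fell, with a median of -0.01, and which direction led turned with median scaling. Gramd2, a membrane contact gene, changed by -2.86 ± 0.29, the claudin gene Cldn18 by -2.50 ± 0.44 and Lmo7, of a junction-associated protein, by -2.38 ± 0.26. Ager, which encodes the receptor RAGE and is abundant in type I cells, read 0.37, 1.01, 0.42 and 0.24 at 6 h and -2.28, 0.17, -1.61 and -2.08 at 24 h and fell by 1.96 ± 0.49, with 24 h replicate 2 well above the rest of its group. The water channel gene Aqp5 fell by 1.64 ± 0.25. Cav1, the caveolin gene, rose by 0.61 ± 0.19 and Spock2, a proteoglycan gene, by 0.77 ± 0.16. The difference from normoxia was called for 1 of the 23, negative.

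Genes of the transitional epithelial state, an intermediate described between type II and type I cells, moved both ways. Of 26 tested, 8 rose and 11 fell. Members that are also p53 targets rose: Cdkn1a and Mdm2, given above, and the stress cytokine gene Gdf15 (1.20 ± 0.14), which read 0.84 to 1.57 at 6 h, against 2.19 to 2.65 at 24 h. The keratin gene Krt19 read 6.60, 6.78, 7.30 and 7.05 at 6 h and 4.94, 5.08, 4.90 and 5.21 at 24 h and changed by -1.90 ± 0.17, the cornified envelope gene Sprr1a changed by -2.64 ± 0.27 and S100a14 by -2.36 ± 0.22.

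Junction and ion transport genes fell in both oxygen conditions. Of 20 epithelial junction genes 13 fell and 0 rose, with a median of -0.75, and 13 fell in normoxia. Cdh1, which encodes E-cadherin, read 4.64, 4.67, 5.27 and 4.85 at 6 h and 3.61, 3.84, 3.65 and 3.82 at 24 h, a fall of -1.13 ± 0.15 against -1.08 ± 0.15 in normoxia. The desmosomal gene Dsc2 changed by -1.73 ± 0.30 and the tight junction gene Cgn by -1.47 ± 0.24. Of 19 tested ion and fluid transport genes 14 fell and 1 rose, with a median of -0.78, and 9 fell with median scaling. Scnn1a, a subunit of the sodium channel that drains alveolar fluid, read 2.80, 3.45, 3.21 and 2.91 at 6 h and 0.22, 2.14, 0.94 and 0.47 at 24 h and fell by 2.15 ± 0.39, with 24 h replicate 2 the highest of its group by more than 1. The channel regulator gene Fxyd3 (-2.09 ± 0.24) and the potassium channel gene Kcnq1 (-1.77 ± 0.39) fell as well, and the chloride channel gene Clcn2 rose by 0.40 ± 0.11. Hyperoxia 6 h replicate 3 was the highest 6 h array for 16 of 20 junction members (mean deviation 0.38) and 11 of 19 transport members (0.23). Without it 12 members of each list fell.

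The integrated stress response, in which ATF4 raises genes of amino acid supply, was higher at 24 h in both oxygen conditions and less so in hyperoxia. Of 40 tested, 22 rose and 4 fell in hyperoxia, with a median of 0.41, and 38 rose and 2 fell in normoxia, with a median of 1.05. The difference was negative for 21 members (5.63% of all genes) and positive for 0. Ddit3, which encodes the death-linked factor CHOP, was an exception, with 0.42, 0.36, -0.02 and 0.07 at 6 h and 2.87, 1.93, 3.19 and 2.92 at 24 h and a 5.74-fold rise (2.52 ± 0.22) matched in normoxia (2.61 ± 0.22). Atf4 itself rose by 0.45 ± 0.09 against 0.70 ± 0.09, and the lipoprotein receptor gene Vldlr by 1.29 ± 0.15 against 1.90 ± 0.15, neither difference being called.

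Of the 4 stress response members that fell in hyperoxia, Shmt2 and Bcat1 rose in normoxia, and Cbs and Atf3 fell there too. Shmt2, the mitochondrial serine hydroxymethyltransferase gene, read 3.73, 3.93, 3.67 and 3.88 at 6 h and 3.44, 3.06, 3.31 and 3.32 at 24 h and fell by 0.52 ± 0.09 (adjusted p = 2.26e-04), whereas it rose by 0.79 ± 0.09 in normoxia. The difference was -1.31 ± 0.12 (adjusted p = 8.48e-06). Bcat1, the cytosolic branched-chain aminotransferase gene, fell by 0.83 ± 0.18 and rose by 0.65 ± 0.18 in normoxia. Of 20 listed aminoacyl-tRNA synthetase genes 19 were tested, of which 5 rose and 3 fell in hyperoxia and 15 rose and 0 fell in normoxia, with 12 differences negative. With median scaling 13 rose and 1 fell in hyperoxia. The serine enzyme gene Sars rose by 0.64 ± 0.08 against 1.18 ± 0.08, and the valine enzyme gene Vars fell by 0.80 ± 0.10 against a rise of 0.33 ± 0.10.

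Hyperoxia 24 h replicate 2 was the lowest 24 h array for 37 of the 40 stress response members, with a mean deviation of -0.35. Trib3, an ATF4 target that feeds back on it, read 4.23, 3.73, 4.05 and 3.63 at 6 h and 4.80, 3.48, 4.98 and 4.46 at 24 h, and its change of 0.52 ± 0.25 was not called (adjusted p = 0.0925), but it was called without that array (0.84 ± 0.15, adjusted p = 0.00064). Without the array 26 members of the list rose, 3 fell and the median was 0.50. The ATF4 response element core TGATGNAA was in the 300-base window of 11 of 35 members (31.4%). It was in that of 4.51% of all genes and 3.19% of tested genes.

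Chaperones of the endoplasmic reticulum fell in hyperoxia. Of 30 tested, 20 fell and 2 rose, with a median of -0.43, against 6 lower and 8 higher in normoxia (median 0.01). The difference was negative for 16 and positive for 0. Their promoters are known for the endoplasmic reticulum stress element, bound by NF-Y and ATF6, and 2 chaperone promoters with a match in capitals are shown as above (RefSeq, GRCm38.p6), the second on the opposite strand.
Hspa5 (chr2:34771970-34772119, plus strand): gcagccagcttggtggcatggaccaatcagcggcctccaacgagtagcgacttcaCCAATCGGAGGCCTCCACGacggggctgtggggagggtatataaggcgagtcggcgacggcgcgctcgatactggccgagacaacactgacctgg
Hsp90b1 (chr10:86705415-86705564, minus strand): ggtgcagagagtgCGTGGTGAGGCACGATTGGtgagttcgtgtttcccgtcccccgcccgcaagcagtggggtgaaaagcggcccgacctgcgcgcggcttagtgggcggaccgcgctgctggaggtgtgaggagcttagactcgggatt
The element was in 10 of 25 members with a window (40.0%), in 0.137% of all genes and in 0.177% of tested genes. Hspa5, which encodes the chaperone BiP, read 7.02, 6.74, 7.05 and 6.83 at 6 h and 6.34, 6.23, 6.33 and 6.43 at 24 h, a 1.49-fold fall without overlap (-0.58 ± 0.08, adjusted p = 5.18e-05). In normoxia its change was 0.06 ± 0.08, and the difference was -0.63 ± 0.12. Hsp90b1, the GRP94 gene, fell by 0.54 ± 0.07, against a normoxic change of 0.02 ± 0.07. Creld2, a secreted stress factor gene, changed by -1.04 ± 0.07 and the oxidoreductase gene Ero1b by -1.03 ± 0.08. Derl3, of the degradation channel, fell furthest, by -2.09 ± 0.19, reading -3.16 to -2.23 at 6 h, against -4.84 to -4.43 at 24 h. The sensor gene Atf6 was 1 of the 2 that rose (0.31 ± 0.09).

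Sterol genes fell too. Of 28 cholesterol synthesis and uptake genes 21 fell and 1 rose, with a median of -0.49, against 5 lower and 3 higher in normoxia. The difference was negative for 11 and positive for 1, and negative for 17 without hyperoxia 6 h replicate 3. Insig1, which retains the sterol sensor in the endoplasmic reticulum and is itself a sterol-regulated gene, read 0.19, 0.54, 0.24 and 0.74 at 6 h and -0.54, -0.63, -1.0 and -0.64 at 24 h. All 24 h arrays were below all 6 h arrays (-1.13 ± 0.13, adjusted p = 1.11e-05), and in normoxia there was a change of 0.06 ± 0.13. The isoprenoid enzyme gene Idi1 changed by -1.14 ± 0.12 and the sterol carrier gene Stard4 by -0.86 ± 0.11. Scap, the sensor itself, was the one that rose (0.57 ± 0.09) and the one with a positive difference (0.55 ± 0.13). The sterol response element was searched as 1 exact run of letters, with no variable positions. It was in the window of 0 of 20 members and of 27 of all 27025 genes (0.0999%). A search this narrow cannot tell whether the members lack the element, so no conclusion is drawn from the 0.

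Of 34 fatty acid and phospholipid genes 32 were tested, of which 7 rose and 6 fell, while 8 differences were negative and 1 positive. Which direction led turned with the scaling, at 14 higher and 4 lower with median scaling and 6 and 10 with quantile normalization. The fatty acid synthase gene Fasn fell by 0.63 ± 0.08 against a normoxic change of 0.21 ± 0.08 that was not called, and the difference was -0.84 ± 0.12. Elovl6, which elongates palmitate, changed by -1.17 ± 0.10 and the regulator gene Srebf1 by -0.61 ± 0.10, whereas the acyltransferase gene Gpam rose by 0.69 ± 0.09.

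Growth-related housekeeping groups depended on the scaling. Ribosome biogenesis genes gave 2 higher and 14 lower of 30, and 11 higher and 6 lower with median scaling, while 10 differences from normoxia were negative and 1 positive. Dkc1, the dyskerin gene of ribosomal RNA modification, read 1.08, 1.17, 1.16 and 1.09 at 6 h and 0.43, 0.55, 0.35 and 0.42 at 24 h and fell by 0.69 ± 0.06, against a normoxic change of 0.11 ± 0.06. Tcof1, of ribosomal RNA transcription, fell by 0.61 ± 0.10. Cytosolic ribosomal protein genes gave 29 higher and 1 lower of 35, but 3 higher and 2 lower with quantile normalization. Respiratory chain and ATP synthase genes gave 18 higher and 0 lower of 34, 9 and 2 with quantile normalization and 31 and 0 with median scaling. Of 22 cytosolic heat shock genes 3 were higher and 5 lower, against 11 and 1 with median scaling, and the cochaperone gene Fkbp4 fell by 0.98 ± 0.10.

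Inflammatory genes fell with time. Of 45 listed cytokine, chemokine and related genes 39 were tested, of which 20 fell and 8 rose, with a median of -0.37, and in normoxia 20 fell and 5 rose. Cxcl5, a neutrophil chemokine gene, read -0.12, -0.52, 1.76 and 0.73 at 6 h and -2.69, -3.08, -2.83 and -1.68 at 24 h, an 8.19-fold fall (-3.03 ± 0.48), and 6 h replicate 3 was the highest array. Cxcl10 changed by -2.74 ± 0.34, Tnf by -2.55 ± 0.33 and Csf2, the gene of the growth factor GM-CSF that type II cells secrete, by -2.22 ± 0.32. Their normoxic changes were -4.18 ± 0.48 for Cxcl5, -2.63 ± 0.34 for Cxcl10, -2.86 ± 0.33 for Tnf and -2.43 ± 0.32 for Csf2, and no difference was called for these 4. Csf1, the macrophage growth factor gene, rose by 0.82 ± 0.09 and Tnfaip2 by 0.99 ± 0.13. Of the 39 members the difference was positive for 2 and negative for 1.

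Interferon-stimulated genes moved both ways. Of 34 tested, 15 rose and 8 fell, with a median of 0.25, and 10 rose without hyperoxia 24 h replicate 2. Over all genes 25.0% rose and 27.4% fell. Ifit3, an antiviral gene, read -3.71, -3.72, -3.88 and -3.76 at 6 h and -2.05, -1.81, -1.85 and -2.26 at 24 h and rose 3.42-fold (1.78 ± 0.18), more than in normoxia (1.06 ± 0.26, adjusted p = 0.0139). Ifit1 rose by 1.72 ± 0.29 and the ubiquitin-like gene Isg15 by 1.23 ± 0.21. The paralogous genes Mx1 and Mx2, of a family named for antiviral GTPases, went opposite ways: Mx1 fell by 3.75 ± 0.51, with 1 of 4 arrays above background at 24 h, and Mx2 was at least 4.21-fold higher (-6.30 ± 0.75 to -4.23 ± 0.33), with none above background at 6 h. Near-identical stretches in such families can share signal. In antigen presentation 4 of 15 genes rose and 6 fell. Tap1, the peptide transporter gene, rose by 0.98 ± 0.15 and the immunoproteasome gene Psmb8 fell by 1.13 ± 0.12, and both differed from normoxia (1.26 and -0.79). Hyperoxia 24 h replicate 2 was the highest 24 h array for 13 of the 15, with a mean deviation of 0.47.

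Immediate-early genes moved both ways, and most clock genes rose. Of 32 immediate-early genes tested, 11 rose and 9 fell, against 25.0% and 27.4% of all genes, and 8 rose without hyperoxia 24 h replicate 1. Klf2 and Klf4, Krüppel-like factor genes, rose by 1.30 ± 0.17 and 1.30 ± 0.17, while Fos changed by -0.76 ± 0.11, Arc by -0.96 ± 0.19 and the phosphatase gene Dusp2 by -0.91 ± 0.16. Egr1 read 3.32, 3.23, 3.43 and 2.95 at 6 h and 3.26, 3.65, 3.27 and 3.25 at 24 h, overlapping, with a change of 0.12 ± 0.13 that was not called, and in normoxia it fell by 0.85 ± 0.13, so the difference was 0.97 ± 0.18 (adjusted p = 0.00309). The 5 differences called in this list were positive, and 8 were without hyperoxia 6 h replicate 3. Of 18 clock genes 12 rose and 1 fell, with a median of 0.55. Dbp, a clock output factor gene, read -0.35, -0.26, -0.61 and -0.80 at 6 h and 1.94, 1.60, 2.06 and 2.03 at 24 h and rose 5.32-fold (2.41 ± 0.14, adjusted p = 1.41e-08), against 0.91 ± 0.14 in normoxia. The repressor gene Ciart rose by 1.04 ± 0.17. The labels give no time of day.

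More matrix genes rose than fell, in hyperoxia as in normoxia. Of 32 collagen and matrix genes 19 rose and 4 fell, with a median of 0.44, and in normoxia 21 rose and 3 fell (median 0.58). Col4a1 and Col4a2, the chains of basement membrane collagen, rose by 1.24 ± 0.23 and 1.20 ± 0.22, and Col4a1 read 5.24, 5.31, 4.45 and 5.15 at 6 h and 6.23, 6.70, 6.30 and 5.88 at 24 h. The lowest array of the 6 h group for Col4a1 was replicate 3. The laminin chain genes Lama3 (-1.28 ± 0.22) and Lamb3 (-1.03 ± 0.23) were among the 4 falls. Col18a1, which encodes the precursor of endostatin, rose by 1.28 ± 0.19 and more than in normoxia (1.07 ± 0.27). Of 24 protease and inhibitor genes 11 rose and 6 fell: Mmp2 rose by 1.55 ± 0.28, Mmp12 by 1.31 ± 0.28 and Ctsk by 1.28 ± 0.18, and Mmp3 fell by 1.52 ± 0.34. TGF-beta genes gave 8 higher and 3 lower of 23, and 15 higher with median scaling, with the ligand gene Tgfb3 at 0.89 ± 0.15.

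Of 32 autophagy and lysosome genes 25 rose and 1 fell, with a median of 0.39, close to the 23 that rose in normoxia (median 0.37). Gaa, the acid alpha-glucosidase gene, read 4.30, 4.24, 4.24 and 4.08 at 6 h and 5.22, 5.16, 5.13 and 5.03 at 24 h and rose by 0.92 ± 0.09. The protease genes Ctsl and Ctsa rose by 0.72 ± 0.12 and 0.69 ± 0.10. The one that fell was Atg5, of autophagosome formation, by -0.41 ± 0.09, a call lost with median scaling. HIF targets gave 15 higher and 4 lower of 34, and 7 and 6 with quantile normalization. Among them Adm, the adrenomedullin gene, rose by 1.34 ± 0.31, and Pdk1, which holds back pyruvate oxidation, fell by 0.59 ± 0.09 against a rise of 0.27 ± 0.09 in normoxia (difference -0.86 ± 0.12).

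Growth factor, Wnt, Notch and YAP genes had 9 rises and 10 falls among 33, in an order that turned with median scaling. These counts are near the shares over all genes, 25.0% higher and 27.4% lower. Shh, the hedgehog ligand gene, read -1.07, -0.74, -0.60 and -0.68 at 6 h and -4.33, -2.48, -3.33 and -4.24 at 24 h and fell by 2.82 ± 0.41, and the ligand gene Wnt7a fell by 2.04 ± 0.23. Lef1, a Wnt transcription factor gene, rose by 0.90 ± 0.12. The Notch ligand gene Dll1 rose by 0.94 ± 0.17 and fell by 0.47 ± 0.17 in normoxia, a difference of 1.42 ± 0.24 (adjusted p = 0.00117).

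Markers of other cell types moved with time as well, and their part in the changes above was not tested. Of 20 listed fibroblast and smooth muscle markers 19 were tested, all above background on every hyperoxia array, of which 10 rose and 1 fell, with a median of 0.47. The summed scaled signal of this list lay between 1136 and 1431 on the 6 h arrays, against 1862 to 1980 on the 24 h arrays, and none of its tested markers was at or below background. Acta2, the smooth muscle actin gene, read 8.02, 8.14, 7.44 and 7.86 at 6 h and 8.57, 8.62, 8.67 and 8.61 at 24 h and rose by 0.75 ± 0.13, and the calponin gene Cnn1 rose by 0.85 ± 0.11. The fall was in Inmt, a lung methyltransferase gene (-1.23 ± 0.20). These values stand beside the collagen counts, and the difference from normoxia was called for 1 of the 19 markers.

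Airway markers fell. Of 17 listed club and secretory markers 15 were tested, of which 9 fell and 2 rose, with a median of -1.61 and a summed signal between 45.2 and 71.1 on the 6 h arrays, against 15.1 to 22.4 on the 24 h arrays. Ciliated markers gave 11 lower and 1 higher of 15 (median -0.79), with Foxj1, the master regulator gene of cilia, at -1.11 ± 0.27 and Mcidas, a regulator of multiciliated cells, at 1.75 ± 0.16. The summed signal of the ciliated list, in which the brightest members weigh most, nevertheless went from 100 to 110 at 6 h to 115 to 132 at 24 h.

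Immune markers were mixed. Of 13 listed neutrophil markers 10 were tested, with 5 lower and 1 higher. Ltf, the lactoferrin gene, changed by -3.20 ± 0.34, Ly6g by -2.72 ± 0.46 and S100a8 by -2.23 ± 0.39. Neutrophil summed signal lay between 58.0 and 62.8 on the 6 h arrays, against 60.8 to 72.5 on the 24 h arrays. Macrophage and monocyte markers gave 4 higher and 7 lower of 17, with a median of -0.45, and 5 and 4 with normexp background correction. Over all genes 25.0% rose and 27.4% fell. The summed signal of this list lay between 31.6 and 42.8 on the 6 h arrays, against 73.2 to 81.9 on the 24 h arrays. Such a sum follows its brightest members and does not measure the number of cells of a type. Cd68, a macrophage lysosome gene, read -0.28, 0.07, -0.28 and -0.14 at 6 h and 0.48, 0.55, 0.63 and 0.29 at 24 h and rose by 0.65 ± 0.09, against -0.14 ± 0.09 in normoxia, the 1 called difference of its list (0.78 ± 0.13), not called when all probes of a gene were averaged. Lymphocyte markers gave 1 higher and 6 lower of 13, with 3 and 1 under normexp, and endothelial markers 1 higher and 2 lower of 12. The endothelial count of falls was 1 without hyperoxia 24 h replicate 1 or 2 or without 6 h replicate 2, 3 or 4. Of 10 mast cell markers 5 were tested, and Mcpt4 rose by 2.71 ± 0.32 and Mcpt8, a basophil protease gene, by 1.22 ± 0.30, with 1 fall.

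**Figure D4:**
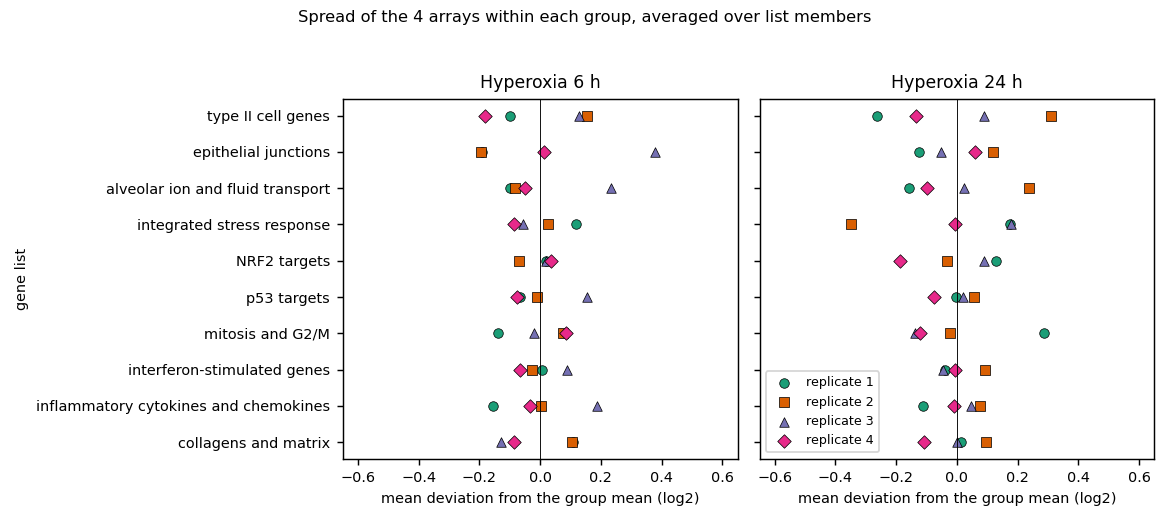
For 10 gene lists, the mean deviation of each array from its group mean over the list's members (log2), at 6 h (left) and 24 h (right), with a symbol for each replicate. Hyperoxia 24 h replicate 2 lies at -0.35 for the integrated stress response and 0.31 for type II genes, and hyperoxia 6 h replicate 3 at 0.38 for epithelial junctions.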

How the data were processed

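Total RNA of 16 cell samples was labelled with Cy3 and hybridised to Agilent arrays, 4 in each of the 4 groups. The authors deposited, per the file headers, a background-corrected intensity for each spot, from Agilent Feature Extraction 10.7.3.1 per the submitters' processing notes, with no scaling between arrays. A table of log2 values that the authors deposited, of unstated normalization (43964 probes, column medians 7.19, correlation 0.997 to 1.00 with the intensities here), served as an alternative only.

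Spots of a probe were averaged, taken as log2 and shifted by the array's 75th percentile over 59305 non-control spots. A gene was its brightest probe, tested if 3 or more of the 4 arrays of any group had it well above background. The counts of arrays above background given for a gene take any of its probes. Names came from the arrays' annotation and RefSeq (17315 of 25414 genes with a RefSeq symbol). Groups were compared with limma 3.58.1 in R 4.3.3, with 1 mean per group over 16 arrays (12 residual and 2.23 prior degrees of freedom), two-sided tests and Benjamini-Hochberg adjustment over all genes, at 0.05. The limma fit was tested on simulated gene values with independent noise. It recovered 83.5% of 2-fold changes over time and 68% of 2-fold differences from normoxia, so a difference not called can be a missed one. Scaling, background and the choice of probes were not simulated. "At least" folds were taken, per array of the dim group, against the higher of the probe's own signal and the lowest signal well above background. Errors are SE of log2 changes or SD of means, with n = 4. The number of arrays limits the precision.

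Named were, among genes with a RefSeq symbol, the 10 largest rises and falls and the 10 largest differences of each sign, fixed examples of each list and up to 3 members with the largest rise and fall of a list. Others are marked where they appear. The 43 gene lists, the comparison and these rules were chosen with earlier results of these data known. Residuals of same-numbered hyperoxia arrays of the 2 times correlated at 0.01 to 0.08, below the limit of 0.1 set for pairing. Those of same-numbered normoxia and hyperoxia arrays of 1 slide, which share a slide column, correlated at 0.09 to 0.35. This bears on tests of the difference, so the number was also fitted as a block within slides.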

Additional observations from a re-analysis of the deposited data

Results flagged for a closer look

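In 15 of the 356 groups of 4 hyperoxia arrays examined, 1 array lay far from the other 3 by Dixon's criterion (the gap to its neighbour as a share of the range of the group). Chance alone gives such a gap in about 1 group of 20. Hyperoxia 24 h replicate 2 stood apart in Derl3 at -4.43 (others -4.84 to -4.78), Tap1 at -0.44 (others -1.05 to -0.98), Egr1 at 3.65 (others 3.25 to 3.27), Sftpd at 1.18 (others 0.17 to 0.34) and Cldn18 at -0.50 (others -2.58 to -2.30). Hyperoxia 24 h replicate 3 stood apart in Gm4610 at -7.52 (others -6.50 to -6.46), Gins3 at 5.88 (others 5.80 to 5.81) and Bbc3 at 2.99 (others 2.72 to 2.73). Hyperoxia 24 h replicate 4 stood apart in Gsta3 at 3.68 (others 4.82 to 5.05), Lamp3 at 3.18 (others 3.33 to 3.36) and Klf2 at 1.34 (others 0.80 to 0.82). Hyperoxia 6 h replicate 3 stood apart in Pidd1 at 1.97 (others 1.54 to 1.55), Dll1 at -1.96 (others -2.48 to -2.46) and Lamb3 at 5.05 (others 4.35 to 4.47). Hyperoxia 6 h replicate 4 stood apart in Ifit1 at -3.89 (others -5.16 to -5.00). Replicate 2 of the 24 h group held 5 of these, replicates 3 and 4 of that group and replicate 3 of the 6 h group 3 each, and replicate 4 of the 6 h group 1.

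The difference between hyperoxia and normoxia in the change over time was examined here for 64 of the 178 named genes. For 56 of these, with an array above background in each of the 4 groups, it was called by limma's test of the difference. The other named genes were not examined here, so their absence below does not mean that no difference was called. Positive values, on the log2 scale and as hyperoxia less normoxia, were 3.05 for Ces2e, 2.97 for Gsta3, 2.82 for Nqo1, 2.77 for Gsta4 and 1.61 for Pidd1. Next in size were 1.57 for Ahrr, 1.51 for Dcxr, 1.50 for Dbp, 1.42 for Trp53inp1, 1.42 for Dll1, 1.39 for Fas, 1.26 for Tap1, 1.16 for Polk, 1.15 for Bax, 1.11 for Ephx1, 1.11 for Blvrb and 1.07 for Col18a1. Smaller positive differences were 1.06 for Ifit3, 0.97 for Egr1, 0.96 for Slc48a1, 0.86 for Mdm2, 0.78 for Cd68, 0.77 for Bcl2l1, 0.72 for Cdkn1a, 0.65 for Rb1, 0.56 for Abca3, 0.55 for Scap and 0.37 for Ccs. Negative values were -3.30 for Ccne2, -3.03 for Aunip, -2.99 for Kif11, -2.87 for Mki67, -2.85 for Ttk, -2.85 for Ska1, -2.84 for Fbxo5, -2.83 for E2f8, -2.75 for Ccna2, -2.68 for Kif2c, -2.65 for Depdc1b and -2.55 for Plk1. Next among these were -2.47 for Cdc6, -1.89 for Rrm2, -1.87 for Mcm5, -1.48 for Bcat1, -1.31 for Shmt2, -1.26 for Sftpb, -1.24 for Derl3, -1.19 for Insig1, -1.13 for Vars, -1.12 for Pcna and -0.87 for Lamp3. Smaller negative differences were -0.86 for Pdk1, -0.84 for Fasn, -0.79 for Psmb8, -0.63 for Hspa5 and -0.50 for Etv5.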

How the results depend on the processing

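Scaling set the balance of the calls. Median scaling gave 10682 genes higher and 4204 lower at 24 h, and normexp background correction 4612 lower. The test of the difference from normoxia called 3135 positive and 2601 negative with array weights, and 2707 and 2261 without hyperoxia 6 h replicate 3. With 1 array left out, 5568 to 6755 genes rose, 6155 to 6929 fell, 1292 to 2707 differences were positive and 1157 to 2261 negative. The replicate number as a block gave 6525 higher and 7173 lower, and 1802 and 1509 for the difference. As a block within each slide it gave 2380 and 1804 for the difference, and it changed no call among the 64 differences examined for named genes. The 8 hyperoxia arrays alone gave 5374 higher and 6577 lower. Among named genes, the change over time was no longer called under at least 1 alternative for Atg5, Gins3 and Trp53i11 and became called for Abca3, Egr1, Etv5 and Trib3. Among the 64 differences examined, the call was lost under at least 1 alternative for Cd68, Cdkn1a, Cpa6, Hoxc13 and Sftpb. None of these values changed sign, and the cause was not tested. Signal over background limits the genes given with a bound or with fewer than 4 arrays above it.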
